A study of Mus musculus with 6 samples.

Results

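Polycomb repressive complex 1 (PRC1) is the ubiquitin ligase that places a single ubiquitin on histone H2A at developmental genes. Every PRC1 is built on a catalytic RING protein, Ring1 or Rnf2 (also called Ring1b), paired with 1 of 6 Pcgf proteins that decides which other subunits can join. Canonical PRC1, which carries a Cbx and a Polyhomeotic (Phc) protein and binds methylated histone H3, is built on Pcgf2 (Mel18) or Bmi1 (Pcgf4). The other Pcgf proteins form variant complexes, in which Rybp or its relative Yaf2 occupies the place on the RING protein that a Cbx protein would take. In mouse embryonic stem cells both kinds of complex hold developmental genes silent, and the Pcgf6 complex is known for silencing germline genes.

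The RNA of these 10 core subunit genes, Pcgf1, Pcgf2, Pcgf3, Bmi1, Pcgf5, Pcgf6, Ring1, Rnf2, Rybp and Yaf2, was followed in 6 libraries. They were chosen by name as the full Pcgf, Ring1 and Rybp families, and all 10 were found among the 37620 Ensembl genes counted and passed the filter on low counts. The groups were wild-type neural progenitor cells (NPC) made in culture from J1 embryonic stem cells, cells labelled Phc1-KO with the genotype Phc1-/- and also derived from J1, and wild-type J1 embryonic stem cells (ESC), with 2 libraries each. Phc1 encodes a Polyhomeotic subunit of canonical PRC1. ESC were grown with LIF and fetal bovine serum on inactivated mouse embryonic fibroblasts, from which they were separated before use. Whether the Phc1-KO cells are 1 clone, and which part of Phc1 was deleted, is not given in the sources used here. The study set NPC and Phc1-KO cells against ESC. A comparison of Phc1-KO with NPC was added here because the cell type entry of the Phc1-KO samples reads NPC, although the series title lists knock-out ESC.

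Reads counted in genes ran between 15226214 and 21893821 per library. Phc1 stood at 40.8 and 34.6 CPM (reads scaled to the size of each library) in NPC, 326.3 and 267.5 CPM in Phc1-KO and 459.7 and 460.5 CPM in ESC, so the libraries labelled Phc1-KO still held 6230 and 5529 reads of the gene. With the deleted part not given, these reads do not check the label. The 8 ESC markers summed to 11.8 and 13.8 CPM in NPC, 1827 and 2187 CPM in Phc1-KO and 1904 and 1912 CPM in ESC, with Dppa3 and Utf1 at 0 counts in NPC. The 8 neural progenitor markers summed to 3650 and 1657 CPM in NPC, 199.4 and 181.5 CPM in Phc1-KO and 205.5 and 216.3 CPM in ESC. Among them Hes5 did not pass the filter on low counts, with 6 and 3 reads in NPC and 3 and 7 reads in ESC. These summed levels of the Phc1-KO libraries lay with those of ESC, which goes against the entry NPC, but not every marker did. By edgeR's quasi-likelihood test, the ESC markers Nanog (log2 fold change -0.83, adjusted p = 0.0245) and Dppa3 (-2.63, adjusted p = 0.0119) were lower in Phc1-KO than in ESC. The neural progenitor marker Pax6 was higher (2.21, adjusted p = 0.00327), at 20.98 and 16.95 CPM in NPC, 21.5 and 20.8 CPM in Phc1-KO and 4.44 and 4.68 CPM in ESC. Beyond counting noise, replicates differed by a coefficient of variation of 27.4% in NPC, 18.0% in Phc1-KO and 1.98% in ESC. The ESC pair lay so close that its libraries may not be independent samples, which was not tested. The tests of members and partners were therefore also run with this pair counted as 1 library. P-values otherwise measure the spread between these libraries. Marker calls, here and below, were made only in the fit of all 6 libraries and were not tried in the alternatives.

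Promoters of 7 of the 10 members were found in the RefSeq table (build GRCm38.p6), with no entry for Pcgf1, Rybp and Yaf2. Shown here are the 250 bases upstream of the start of Bmi1, the member with the largest increase in both comparisons with ESC, of Pcgf5, lower in both, and of Pcgf6, lower in NPC but not called in Phc1-KO. Capitals mark the motifs searched on both strands, namely the E-box CACGTG that Myc, Max and Mga family factors can bind, the E2F-type site GGCGGGAA, the GC box GGGCGG and the CCAAT box. Overlapping matches run together as 1 stretch of capitals.
Bmi1 (GRCm38.p6 chr2:18676768-18677017, plus strand): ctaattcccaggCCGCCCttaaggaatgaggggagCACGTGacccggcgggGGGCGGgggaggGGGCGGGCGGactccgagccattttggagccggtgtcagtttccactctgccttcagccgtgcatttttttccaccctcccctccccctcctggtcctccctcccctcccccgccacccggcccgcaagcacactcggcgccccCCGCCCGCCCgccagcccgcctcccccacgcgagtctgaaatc
Pcgf5 (GRCm38.p6 chr19:36378817-36379066, plus strand): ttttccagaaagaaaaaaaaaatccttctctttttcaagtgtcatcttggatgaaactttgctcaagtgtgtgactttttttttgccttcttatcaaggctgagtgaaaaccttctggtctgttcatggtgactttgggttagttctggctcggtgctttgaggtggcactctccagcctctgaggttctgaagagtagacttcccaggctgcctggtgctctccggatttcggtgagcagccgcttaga
Pcgf6 (GRCm38.p6 chr19:47050907-47051156, minus strand): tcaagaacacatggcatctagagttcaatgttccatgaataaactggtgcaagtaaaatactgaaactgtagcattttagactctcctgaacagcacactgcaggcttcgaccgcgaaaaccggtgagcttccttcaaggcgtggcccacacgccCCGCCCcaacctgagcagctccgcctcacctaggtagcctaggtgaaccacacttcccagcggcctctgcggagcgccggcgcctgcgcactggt

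The Bmi1 window held 21 CpG dinucleotides, 1 E-box and 6 GC boxes. The Pcgf6 window held 14 CpG and 1 GC box, and the Pcgf5 window held 4 CpG and no motif. Among 32851 RefSeq promoters, the median window had 6 CpG, 6.02% held the E-box, 32.7% a GC box, 33.8% a CCAAT box and 1.86% the E2F-type site. Pcgf5 has 3 RefSeq starts. The one printed is the start whose sequence, matched to mm9, ends at the first base of the annotated gene, while the other two windows held 23 CpG with 2 GC boxes and 1 CCAAT box, and 28 CpG with 1 E2F-type site and 1 GC box. These matches describe letters in a window and say nothing of which factors bind there.

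**Figure D1:**
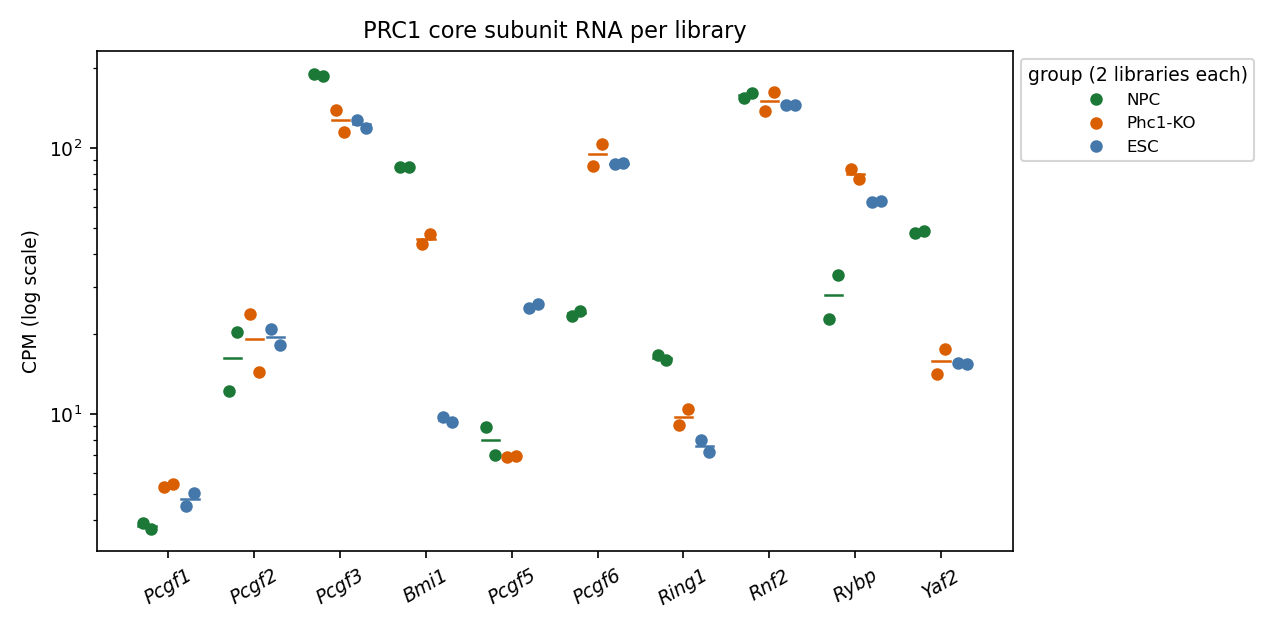
RNA level of each of the 10 subunit genes in CPM (log axis) in every library. Points are the 2 libraries of a group (NPC, Phc1-KO, ESC from left to right) and short lines are group means; Bmi1 reads 84.6 and 85.1 CPM in NPC, 43.7 and 47.5 in Phc1-KO and 9.75 and 9.31 in ESC.

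Set against ESC, NPC carried a different mix of PRC1 core subunit RNA. Bmi1 and Yaf2 RNA were higher, Pcgf6, Pcgf5 and Rybp RNA were lower, and Rnf2, the catalytic subunit with more RNA, did not pass the test. Protein and assembled complexes were not measured. By edgeR's quasi-likelihood test with Benjamini-Hochberg adjustment over all 17489 genes tested, 4 of the 10 members were higher in NPC (Pcgf3, Bmi1, Ring1 and Yaf2) and 3 lower (Pcgf5, Pcgf6 and Rybp). The share called among all genes tested was 61.3%, with 30.4% higher and 30.9% lower, so a count of 7 in 10 is near that background. The median absolute log2 fold change was 1.14 over the members and 0.91 over all genes tested.

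Of the 10 members, Bmi1 had the largest change between NPC and ESC. Its level was 84.6 and 85.1 CPM in NPC, against 9.75 and 9.31 CPM in ESC. Both NPC libraries lay far above both ESC libraries, by a log2 fold change of 3.15 (SE 0.15, edgeR adjusted p = 1.26e-05), or 8.90-fold. Bulk RNA cannot tell more cells expressing a gene from more RNA per cell. Pcgf2, which can replace Bmi1 in the same complex, had 12.2 and 20.4 CPM in NPC, against 20.8 and 18.1 CPM in ESC. The groups overlapped and the log2 fold change of -0.26 (95% interval -1.02 to 0.51) did not pass (edgeR adjusted p = 0.516).

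Pcgf6, the subunit that brings in L3mbtl2, Mga and Max, had 23.4 and 24.4 CPM in NPC, against 87.2 and 87.8 CPM in ESC. The groups did not overlap, and the log2 fold change was -1.87 (SE 0.15, edgeR adjusted p = 8.12e-05). Pcgf3 and Pcgf5, which form closely related complexes with Auts2 and casein kinase, moved in opposite directions. Pcgf5 had 8.94 and 7.01 CPM in NPC, against 25.0 and 25.9 CPM in ESC, a log2 fold change of -1.67 (SE 0.20, edgeR adjusted p = 0.00045).

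Pcgf3 had 191.0 and 186.2 CPM in NPC, against 127.7 and 119.1 CPM in ESC. It was higher in both NPC libraries by a log2 fold change of 0.61 (SE 0.14, edgeR adjusted p = 0.00663). That call did not hold with the ESC pair counted as 1 library (edgeR adjusted p = 0.0898), without ESC 1 (0.0615) or without ESC 2 (0.102), in a range of 0.00105 to 1 over 15 alternatives. Pcgf1, the subunit that works with Kdm2b and Bcor, was the least counted member, with 57 to 113 reads per library. It had 3.88 and 3.70 CPM in NPC, against 4.50 and 5.05 CPM in ESC, and its log2 fold change of -0.33 (95% interval -0.90 to 0.23) did not pass (edgeR adjusted p = 0.262).

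Of the catalytic subunits, Rnf2 had 155.1 and 160.7 CPM in NPC, against 145.2 and 145.6 CPM in ESC. The NPC libraries were both slightly higher, but the log2 fold change of 0.12 (95% interval -0.18 to 0.42) did not pass (edgeR adjusted p = 0.447). Ring1, its paralog, had 16.6 and 15.9 CPM in NPC, against 7.96 and 7.18 CPM in ESC. Both NPC libraries were above both ESC libraries, and the log2 fold change was 1.10 (SE 0.20, edgeR adjusted p = 0.00264).

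Rybp and Yaf2, the paralogs that define variant PRC1, moved in opposite directions. Rybp had 22.7 and 33.4 CPM in NPC, against 62.9 and 63.3 CPM in ESC, a log2 fold change of -1.17 (SE 0.20, edgeR adjusted p = 0.00202). Yaf2 had 48.1 and 48.9 CPM in NPC, against 15.5 and 15.4 CPM in ESC, a log2 fold change of 1.65 (SE 0.17, edgeR adjusted p = 0.000246). For both genes the groups did not overlap, and the Rybp values of the NPC pair lay further apart than those of Yaf2.

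Markers of other cells also differed between these groups. Of 10 feeder fibroblast markers, 8 were higher and 1 lower in NPC by the same test, with a summed level of 7218 and 11620 CPM in NPC, against 446.1 and 443.3 CPM in ESC, and none at 0 counts in any library. The 5 astrocyte markers were all higher in NPC, at 201.4 and 751.7 CPM in NPC against 18.0 and 16.7 CPM in ESC. Of 5 neuron markers tested, 2 were higher and 2 lower in NPC, with a summed level of 52.5 and 39.0 CPM in NPC against 154.6 and 140.5 CPM in ESC. All 7 macrophage markers tested were lower, at 6.38 and 8.25 CPM in NPC against 136.1 and 136.7 CPM in ESC, with Emr1 and Itgam at 0 counts in both NPC libraries. Their part in the subunit levels was not tested.

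**Figure D2:**
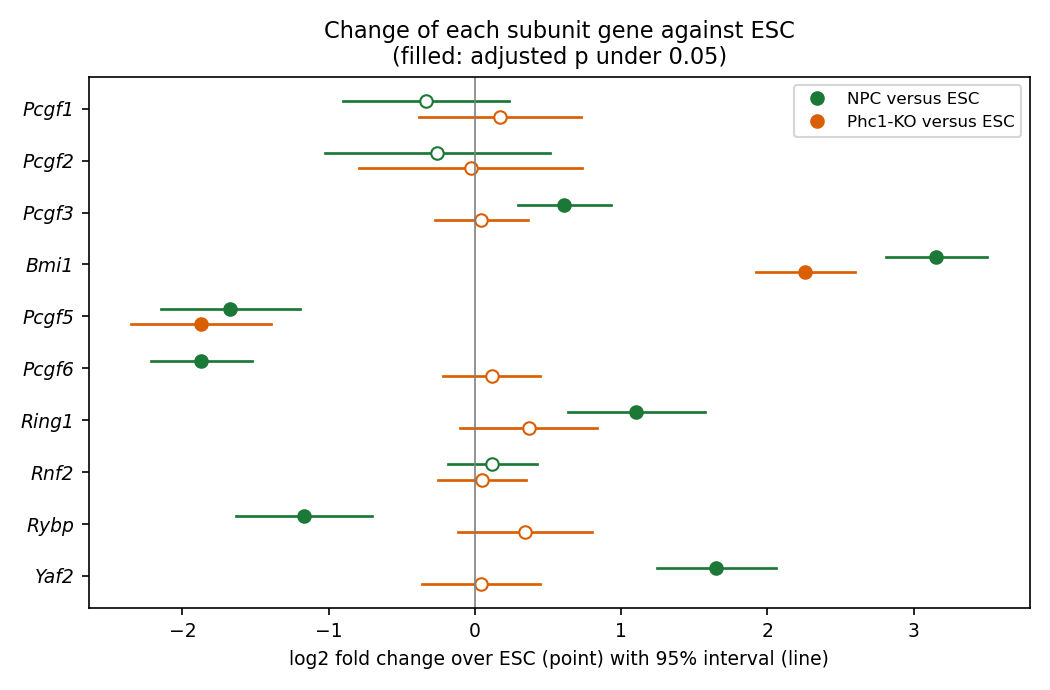
Log2 fold change over ESC of each subunit gene in NPC and in Phc1-KO. Points are edgeR estimates, lines their 95% intervals, and filled points passed at an adjusted p under 0.05; Bmi1 (3.15 in NPC and 2.26 in Phc1-KO) and Pcgf5 (-1.67 and -1.87) are filled in both comparisons, which share the ESC libraries.

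In the cells labelled Phc1-KO, most subunit genes stood near their ESC level, with Bmi1 and Pcgf5 as the exceptions. By the same test 1 of 10 members was higher than in ESC (Bmi1) and 1 lower (Pcgf5), where 10.7% of all genes tested were called, 4.91% higher and 5.75% lower. The median absolute log2 fold change was 0.14 over the members and 0.36 over all genes tested. This comparison shares its ESC libraries with that of NPC.

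Bmi1 had 43.7 and 47.5 CPM in Phc1-KO, against 9.75 and 9.31 CPM in ESC. Both Phc1-KO libraries were above both ESC libraries by a log2 fold change of 2.26 (SE 0.14, edgeR adjusted p = 0.00164), or 4.79-fold. The call held in all 15 alternatives, with an adjusted p of 0.0335 or less. Pcgf5 had 6.91 and 6.97 CPM in Phc1-KO, against 25.0 and 25.9 CPM in ESC, a log2 fold change of -1.87 (SE 0.20, edgeR adjusted p = 0.00546). Its size changed little, between -1.96 and -1.85 over the alternatives. The call was lost with the ESC pair counted as 1 library (edgeR adjusted p = 0.0523), without ESC 1 (0.0629), without ESC 2 (0.0693) and without Phc1-KO 2 (0.0618), in a range of 4.51e-11 to 0.0693.

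For the remaining 8 members no difference from ESC passed. Pcgf6 had 85.9 and 103.5 CPM in Phc1-KO, against 87.2 and 87.8 CPM in ESC, with a 95% interval of the log2 fold change of -0.22 to 0.44. Rnf2 had 138.2 and 162.1 CPM in Phc1-KO, on either side of the ESC values of 145.2 and 145.6 CPM. Rybp had 83.6 and 76.4 CPM in Phc1-KO, against 62.9 and 63.3 CPM in ESC. Its groups did not overlap, but the log2 fold change of 0.34 (95% interval -0.11 to 0.80) did not pass (edgeR adjusted p = 0.282).

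Yaf2 had 14.1 and 17.6 CPM in Phc1-KO, around its ESC values of 15.5 and 15.4 CPM. Ring1 had 9.06 and 10.45 CPM in Phc1-KO, against 7.96 and 7.18 CPM in ESC, a log2 fold change of 0.37 (95% interval -0.10 to 0.83). Pcgf1, Pcgf2 and Pcgf3 had log2 fold changes of 0.17, -0.03 and 0.04. The Pcgf2 libraries in Phc1-KO stood at 23.8 and 14.3 CPM, on either side of the ESC values of 20.8 and 18.1 CPM. An absence of calls does not show that these genes were at equal levels, and the widest interval, that of Pcgf2, ran from -0.79 to 0.73.

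Of the 10 feeder fibroblast markers, 6 were called in Phc1-KO, all of them higher, with a summed level of 1254 and 1130 CPM in Phc1-KO against 446.1 and 443.3 CPM in ESC. Macrophage markers were lower for 5 of 7 tested, at 26.9 and 20.6 CPM in Phc1-KO against 136.1 and 136.7 CPM in ESC. No member of these lists was at 0 counts in Phc1-KO or ESC. Reads outside genes numbered 1.08 per read in a gene in Phc1-KO 1 and 0.661 in Phc1-KO 2, against 0.839 and 0.851 in ESC. Their part in the Bmi1 and Pcgf5 differences was not tested.

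The direct test of Phc1-KO against NPC asked which of the differences from ESC were unequal in the NPC and Phc1-KO cells. Here 2 members were higher in Phc1-KO (Pcgf6 and Rybp) and 4 lower (Pcgf3, Bmi1, Ring1 and Yaf2), against 64.9% of all genes tested called, 32.3% higher and 32.7% lower. Bmi1 was lower in Phc1-KO than in NPC by a log2 fold change of -0.90 (SE 0.13, edgeR adjusted p = 0.00102), which put it between NPC and ESC in every library. Pcgf5 did not pass (log2 fold change -0.20, 95% interval -0.68 to 0.28, edgeR adjusted p = 0.411). Pcgf6 was higher in Phc1-KO by 1.99 (SE 0.15) on the log2 scale, Rybp was higher by 1.51 (SE 0.20) and Yaf2 was lower, at -1.61 (SE 0.17). The Ring1 difference of -0.74 (SE 0.20, edgeR adjusted p = 0.0131) was lost with the ESC pair counted as 1 library (0.0570), without ESC 1 (0.0505) and when only these 2 groups were fitted (0.0562), in a range of 0.00868 to 1.

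To compare levels between genes, counts were divided by exon length, as CPM per kb. On this scale the 6 Pcgf genes summed to 60.2 and 61.2 in NPC, 63.6 and 63.9 in Phc1-KO and 62.9 and 62.5 CPM per kb in ESC. On this scale the summed Pcgf RNA therefore lay within a narrow range in all 6 libraries, while its composition differed. The sum depends on the gene lengths used and was not computed with others, so it does not show a constant Pcgf total. Bmi1 made up 35.2% ± 0.235 of it in NPC, 18.0% ± 0.996 in Phc1-KO and 3.82% ± 0.104 in ESC (SD, n = 2 each). Pcgf6 made up 9.64% ± 0.182 in NPC, 36.4% ± 4.67 in Phc1-KO and 34.2% ± 0.351 in ESC. Pcgf3 held 32.6% ± 0.938 in NPC, 20.9% ± 2.78 in Phc1-KO and 20.6% ± 0.912 in ESC.

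Pcgf5 took 7.65% ± 1.39 of Pcgf RNA in NPC, 6.33% ± 0.0139 in Phc1-KO and 23.6% ± 0.736 in ESC. By exon length, Pcgf1 and Pcgf2 stayed between 5.87% and 10.9% in every library. Shares of RNA do not measure the complexes themselves. Taken by complex, the canonical pair Pcgf2 and Bmi1 held 41.2% and 44.7% in NPC, 28.2% and 25.2% in Phc1-KO and 13.5% and 12.2% in ESC. Pcgf3 and Pcgf5 together held 41.9% and 38.6% in NPC, 29.2% and 25.3% in Phc1-KO and 44.4% and 44.1% in ESC. The share of Pcgf2 and Bmi1 therefore had no overlap between any of the 3 groups. With 2 libraries against 2, an exact two-sided permutation test of a share cannot give a p below 0.333, and Pcgf1, Pcgf3, Bmi1, Pcgf5 and Pcgf6 reached that value for NPC against ESC and Pcgf1, Bmi1 and Pcgf5 for Phc1-KO against ESC.

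**Figure D3:**
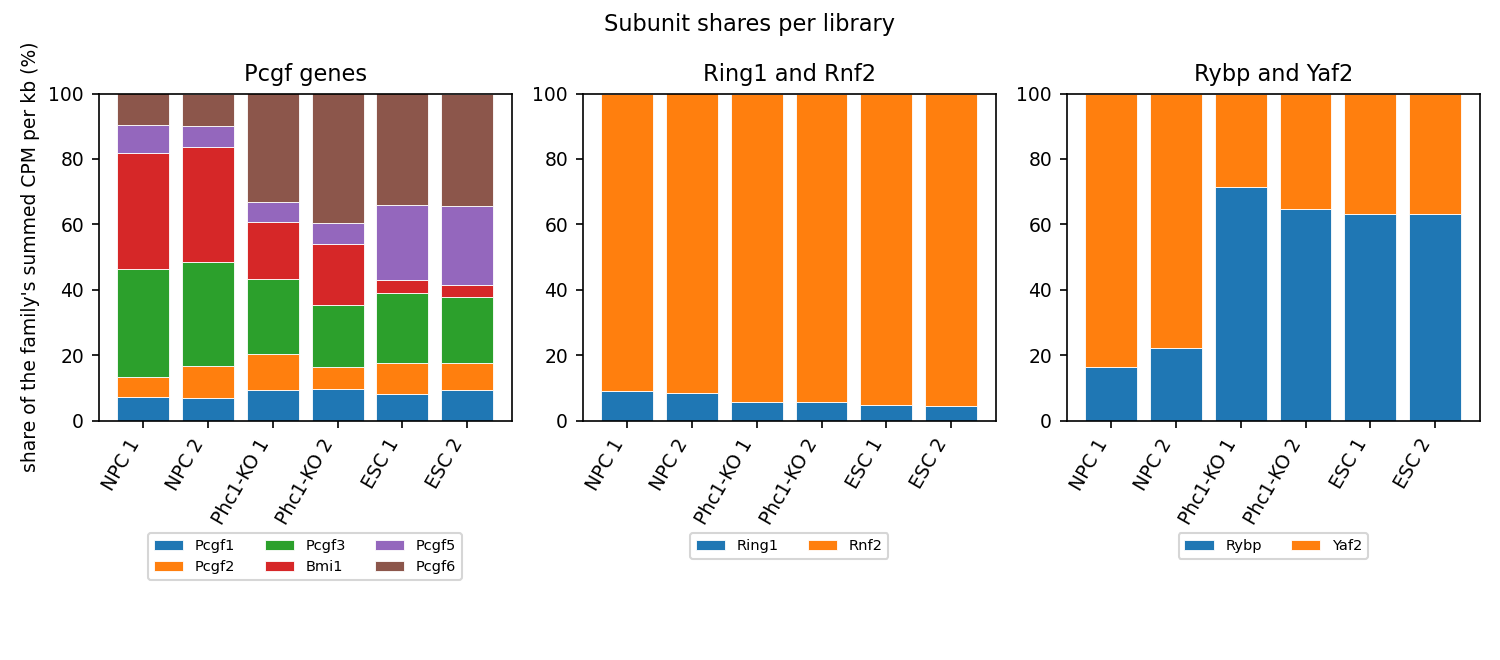
Share of each gene in its family's summed level (CPM per kb, in percent) in each library, for the Pcgf genes, for Ring1 and Rnf2, and for Rybp and Yaf2. Bars stack to 100%; Bmi1 fills 35.2% of the Pcgf bar on average in NPC, 18.0% in Phc1-KO and 3.82% in ESC, and the Rybp part is shorter in NPC than in the other groups.

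Rnf2 held most of the catalytic subunit RNA in every group. Ring1 made up 8.78% ± 0.456 of the Ring1 and Rnf2 sum in NPC, 5.72% ± 0.0644 in Phc1-KO and 4.63% ± 0.331 in ESC (SD, n = 2 each). Neither NPC against ESC nor Phc1-KO against ESC overlapped (exact permutation p = 0.333 each). Rybp made up 19.4% ± 4.10 of the Rybp and Yaf2 sum in NPC, 68.0% ± 4.72 in Phc1-KO and 63.2% ± 0.189 in ESC. The NPC libraries, at 16.5% and 22.3%, were far below the other 4 libraries, whose lowest value was 63.1%.

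The size of the Rybp share rests on how repeated sequence was counted. Of 50-base pieces tiled over each member's exons and matched to mm9, 79.4% of those from Rybp (mm9 chromosome 6, 100178560 to 100237435, minus strand) had a perfect copy elsewhere. All 336 of these pieces had a copy in 1 stretch of chromosome 13 (66108573 to 66112968), where the annotation has the pseudogene Gm6910. The same held for 43.8% of Pcgf1 pieces, with a copy on chromosome 6 (22683761 to 22684580) where no gene is annotated, and for 18.6% of Bmi1 pieces (63), of which 60 had a copy on chromosome X (146655408 to 146657868) at the pseudogene Gm5946. For the other 7 members the figure was 1.42% or less. Reads that fit several places were kept apart in the deposited tallies and are not in the gene counts, so the levels per kb of these 3 genes read low. The pseudogenes themselves held at most 10 counts (Gm6910) and 3 counts (Gm5946) in any library. Reads of the copied sequence are missing there as well, so these counts cannot tell whether the pseudogenes are silent.

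Per kb of exon without such pieces, a scale chosen after the data were seen, Rybp made up 53.7% ± 6.53 of the pair in NPC, 91.1% ± 1.75 in Phc1-KO and 89.3% ± 0.0776 in ESC (SD, n = 2 each). Rybp was thus below Yaf2 in NPC on the first scale. On the second scale its share was 49.1% and 58.3% in the 2 NPC libraries. On both scales NPC had the lowest Rybp share. Fold changes of a gene between groups do not depend on its length. Pcgf2 and Bmi1 together held 44.9% ± 2.25 of Pcgf RNA in NPC, 27.7% ± 1.79 in Phc1-KO and 12.8% ± 0.959 in ESC on the second scale. There Pcgf1 held 11.2% ± 0.469 in NPC, 15.4% ± 0.261 in Phc1-KO and 14.4% ± 1.17 in ESC, more than by exon length.

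By exon length, Rnf2 was the most abundant of the 10 RNAs in all 3 groups, at 52.1 ± 1.32 CPM per kb in NPC, 49.6 ± 5.58 in Phc1-KO and 48.0 ± 0.102 in ESC (SD, n = 2 each). In NPC it was followed by Yaf2 (25.9), Bmi1 (21.4) and Pcgf3 (19.8), which did not overlap one another. The other 6 had means between 4.36 and 6.30 CPM per kb. Among neighbours in rank, Rybp overlapped Pcgf6, Ring1 overlapped Pcgf2, Pcgf2 overlapped Pcgf5 and Pcgf5 overlapped Pcgf1. Genes further apart in rank overlapped too, such as Rybp (5.09 and 7.50) and Ring1 (5.13 and 4.91). In Phc1-KO the order was Rnf2, Pcgf6 (23.2), Rybp (17.95), Pcgf3 (13.3), Bmi1 (11.5), Yaf2 (8.46), Pcgf1 (6.18), Pcgf2 (5.54), Pcgf5 (4.04) and Ring1 (3.01), and only Pcgf1 and Pcgf2 were neighbours that overlapped. In ESC it was Rnf2, Pcgf6 (21.4), Pcgf5 (14.8), Rybp (14.15), Pcgf3 (12.9), Yaf2 (8.24), Pcgf2 (5.65), Pcgf1 (5.49), Bmi1 (2.40) and Ring1 (2.33), where Pcgf2 overlapped Pcgf1 and Bmi1 overlapped Ring1. On the second scale Rybp stood first in Phc1-KO (87.3) and ESC (68.8) and after Rnf2 in NPC (30.6), where it overlapped Bmi1 (26.2). Pcgf1 stood above Yaf2 in Phc1-KO (10.99) and ESC (9.76) on that scale, but not in NPC (7.75).

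The genes that join these subunits were counted from 4 lists holding 30 genes, all of which were tested. In NPC against ESC, 8 were higher and 11 lower. Of 9 canonical PRC1 genes, 5 were higher and 2 lower. Cbx genes, whose proteins bind methylated histone H3, went both ways, with log2 fold changes of 3.71 for Cbx8 (SE 0.37), 1.11 for Cbx6 (SE 0.20) and -2.59 for Cbx7 (SE 0.31). Among the Polyhomeotic genes, Phc2 rose by 2.16 (SE 0.24) and Phc3 by 1.11 (SE 0.14), while Phc1 changed by -3.61 (SE 0.16).

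Of the 9 Pcgf6 complex genes, 5 were lower in NPC and 1, E2f6, higher. L3mbtl2 changed by -1.95 (SE 0.17) on the log2 scale, Wdr5 by -1.40 (SE 0.15), Mga, the DNA-binding partner of Max, by -1.03 (SE 0.14) and Hdac1, a histone deacetylase, by -1.02 (SE 0.16). The fifth lower gene was Cbx3, at -0.75 (SE 0.18), and E2f6 changed by 0.59 (SE 0.19). Of the 5 Pcgf1 complex genes, 2 were called, both lower. The deubiquitinase Usp7 changed by -1.47 (SE 0.14), and the other was Kdm2b, which binds unmethylated CpG, at -0.95 (SE 0.19). Of 7 genes listed for the Pcgf3 and Pcgf5 complexes, 2 were higher, Dcaf7 at 1.57 (SE 0.13) and Auts2 at 1.05 (SE 0.29), and 2 lower, Fbrsl1 at -0.63 (SE 0.22) and the casein kinase subunit Csnk2a1 at -0.50 (SE 0.16). These counts stand beside 30.4% of all genes tested higher and 30.9% lower. With the ESC pair counted as 1 library, 6 partners were higher and 8 lower. The calls of Auts2, Cbx3, Csnk2a1, E2f6 and Fbrsl1 ended there, and also without ESC 1 or without ESC 2.

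In Phc1-KO against ESC, 2 of the 30 partner genes were called, both of canonical PRC1, or 6.67% beside 10.7% of all genes tested. Cbx8 was higher, at 4.35 and 5.56 CPM in Phc1-KO against 1.85 and 0.912 CPM in ESC, a log2 fold change of 1.84 (SE 0.37, edgeR adjusted p = 0.0270). Phc1 was lower by a log2 fold change of -0.63 (SE 0.15, edgeR adjusted p = 0.0412). Neither call held with the ESC pair counted as 1 library, or without ESC 1, ESC 2 or Phc1-KO 2. In Phc1-KO against NPC, 11 of the 30 were higher and 10 lower, or 70%, which is near the 64.9% called among all genes tested. By list, 6 of 9 Pcgf6 complex genes were higher and 6 of 9 canonical PRC1 genes lower, beside 32.3% higher and 32.7% lower over all genes.

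**Figure D4:**
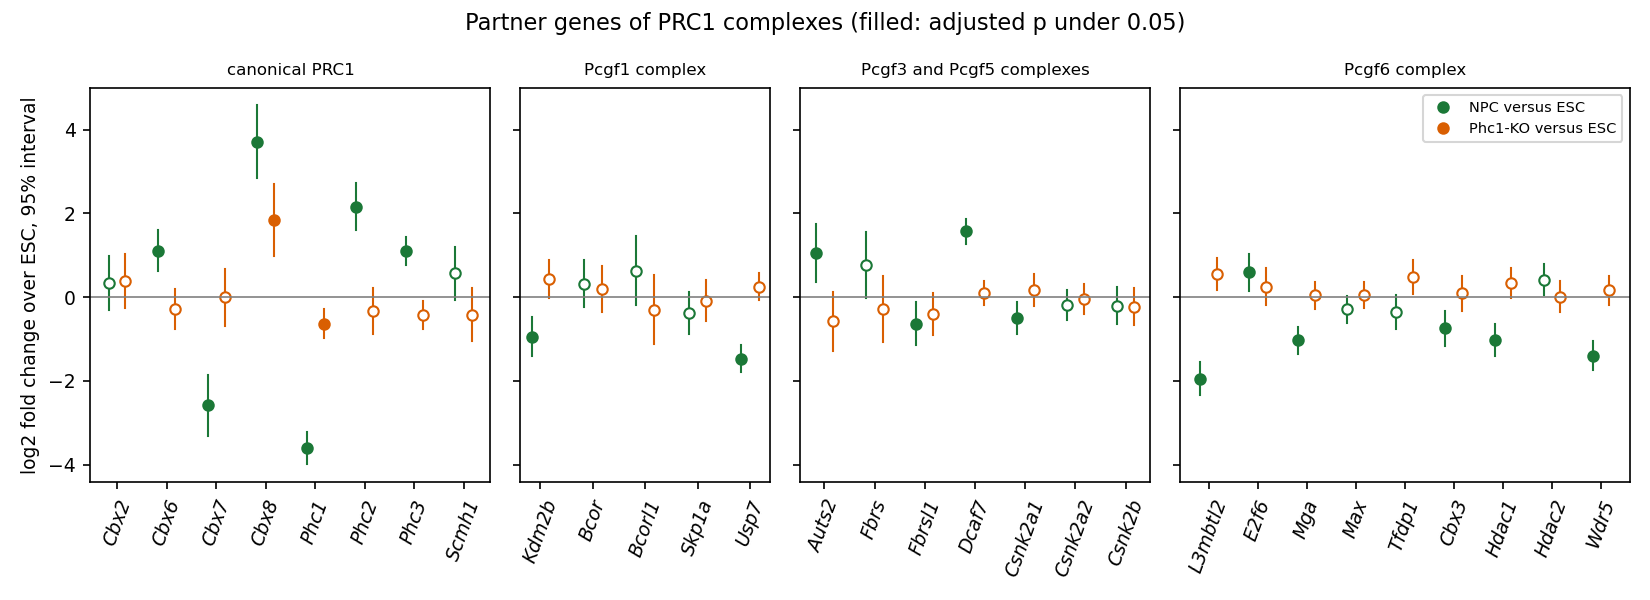
Log2 fold change over ESC of partner genes in NPC and in Phc1-KO, by complex. Points are edgeR estimates, lines their 95% intervals, and filled points passed at an adjusted p under 0.05; in NPC Cbx8 (3.71) and Phc1 (-3.61) lie furthest from 0 among the genes drawn, and in Phc1-KO only these 2 are filled.

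Likeness of pattern over the 6 libraries was measured as the root mean square difference of log2 CPM. Each gene was first centred on its own mean. For each member, 11215 other tested genes with a mean of at least 4 CPM were searched, the other members among them. Genes with no symbol, or with a model or clone name such as those in Gm or Rik, were left out of the search. Pairs that were each other's nearest member were Pcgf3 and Ring1, at 0.243, Pcgf1 and Rnf2, at 0.256, and Pcgf6 and Rybp, at 0.335. Many other genes were nearer than these members, from 678 for Pcgf6 to 2308 for Rnf2. For Bmi1 the nearest member was Yaf2, at 0.924, and 696 other genes were nearer, first Gfra1 (0.271) and Layn (0.273). For Pcgf5 the nearest were Ero1l (0.104) and Nt5e (0.155), and for Pcgf6 they were Zfp518a (0.0381) and Hmgxb4 (0.0558). Ergic1 and Kdm4a were nearest to Pcgf3, Slc35a2 and Abhd5 to Ring1, Ppib and Cldn12 to Rnf2, Arhgef3 and Adam23 to Rybp, Ier5l and Fbf1 to Yaf2, Zbtb43 and Apbb3 to Pcgf1, and Fhod1 and Thbs1 to Pcgf2. These distances ran from 0.0219 to 0.121.

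The 10 genes lie on 8 chromosomes, with Pcgf5 and Pcgf6 both on chromosome 19 (mm9 36453557 to 36530682 on the plus strand, and 47108109 to 47125380 on the minus strand). Bmi1 is on chromosome 2 (18598645 to 18608256, plus strand), Rnf2 on chromosome 1 (153316536 to 153347953, minus strand), Ring1 on chromosome 17 (34157737 to 34161625, minus strand) and Yaf2 on chromosome 15 (93114709 to 93167366, minus strand). Pcgf1 shares chromosome 6 with Rybp (83028380 to 83030841, plus strand), Pcgf2 is on chromosome 11 (97550137 to 97561811, minus strand) and Pcgf3 on chromosome 5 (108890251 to 108935995, plus strand). Exon length ran from 870 bases for Pcgf1 to 9544 bases for Pcgf3. No exon base of any member overlapped an exon of another annotated gene on either strand.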

How the data were processed

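The authors deposited unnormalized counts for each Ensembl gene, from single-end reads of 50 bases. STAR, HTSeq and mm9 are named per the submitters' processing notes, without versions. Which annotation and strand setting they used is not stated there. Each file held 37620 genes and 5 tallies of reads given to no gene, which were left out. GENCODE M1 (mm9) gave symbols for 37205 genes, positions and exon lengths (union of exons).

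Genes passed filterByExpr (minimum count 10, total 15), leaving 17489. All 6 libraries were fitted with edgeR 4.0.16 (quasi-likelihood, TMM, 1 term per group, 3 residual degrees of freedom) in R 4.3.3, and p-values were adjusted by Benjamini-Hochberg over all genes tested, at a threshold of 0.05. CPM use TMM-adjusted library sizes. Standard errors come from the log2 fold change and its F statistic. Of the scripts, only the edgeR fit was tested on simulated data, for NPC against ESC. Levels between genes are CPM per kb of exon, and shares use counts per kb. Exon pieces of 50 bases, every 10 bases, were aligned to mm9 with minimap2 2.31.

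Members, lists and tests were chosen with earlier results of these data known. Named were all 10 members, partners that passed with a log2 change of at least 1 in NPC or that passed in Phc1-KO, those making up small counts (chosen after their values were seen), and per member the 2 genes of nearest pattern. The listed markers Sox1 and Map2 were not analysed here. 1 canonical PRC1 gene is in the counts of partners, but its values are not reported here. Protein sequence features were planned and not used here. The reads carry no molecular identifiers. Alternatives were DESeq2 1.42.0, other scalings and filters, a 2-fold threshold, fits of 2 groups, a replicate block, the ESC pair as 1 library, each library left out and other gene lengths.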

Additional observations from a re-analysis of the deposited data

How the results depend on the processing

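Of the alternative values of the members' log2 fold changes, 420 kept direction and call, 16 lost the call and 14 changed sign, all 14 of values that had not been called. Against a 2-fold change, 2 members were higher in NPC against ESC and 1 lower in Phc1-KO against NPC. With the ESC pair counted as 1 library, 0 members and 0 partners were lower and 0 partners higher in Phc1-KO against ESC. DESeq2 called 2 partners higher there. Leaving out 1 library gave 0 to 1 members lower, 0 to 3 partners higher and 0 to 1 lower in that comparison, where the share of all genes called ran from 0.499% to 23.4% over the alternatives, against 10.7%. Total-count scaling shifted the median of all genes by -0.08 in Phc1-KO against ESC and turned Pcgf3 (-0.0387), Rnf2 (-0.0413) and Yaf2 (-0.0499). Leaving out 1 library gave log2 fold changes in Phc1-KO against ESC of -0.44 to 0.30 for Pcgf2, -0.0906 to 0.17 for Pcgf3, -0.0246 to 0.25 for Pcgf6, -0.0706 to 0.16 for Rnf2 and -0.12 to 0.19 for Yaf2; of -0.67 to 0.069 for Pcgf2 in NPC against ESC; and of -0.17 to 0.65 for Pcgf2 and -0.18 to 0.0572 for Rnf2 in Phc1-KO against NPC. Share differences kept direction in 103 values and turned in 9. Without 1 library these ran, in percentage points, from -3.15 to 0.672 for Pcgf2 in NPC against ESC, and in Phc1-KO against ESC from -2.50 to 1.87 for Pcgf2, -1.69 to 2.25 for Pcgf3 and -1.11 to 5.49 for Pcgf6. With no length correction Pcgf3 (-3.19) and Pcgf6 (-0.656) turned there, as did Pcgf3 (-0.427) with repeated sequence left out of the length. The cause was not tested. With a replicate block, the calls of all members were kept, at 4 higher and 3 lower in NPC against ESC, 1 and 1 in Phc1-KO against ESC and 2 and 4 in Phc1-KO against NPC. Same-numbered libraries did not deviate together (r from -0.0207 to 0.0202 across 17489 genes), so no pairing by number was seen. The ESC pair differed by a CV of only 1.98% beyond counting, so correlations with ESC could hardly show pairing. Pcgf1, with 57 reads at its lowest, has a counting error of 13.2% there, and counting error is 2.06% for Rnf2.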
